A study of Mus musculus with 21 samples.

Results

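Amino acid transporter genes were taken as the genes whose platform symbol starts with Slc1a, Slc3a, Slc6a, Slc7a, Slc36a, Slc38a or Slc43a. This rule gave 63 of 18193 genes on the NMuMG arrays and 43 of 12393 genes on the NM18 arrays, and the 43 NM18 genes were also on the NMuMG arrays. Only probe sets with 1 gene symbol were used, 125 on the NMuMG and 67 on the NM18 arrays, and the probe set with the highest mean stood for its gene. On the NMuMG and NM18 arrays the families counted 7 and 6 Slc1a, 2 and 2 Slc3a, 21 and 15 Slc6a, 16 and 13 Slc7a, 9 and 6 Slc38a, and 3 and 1 Slc43a genes. The 5 Slc36a genes were on the NMuMG arrays only. The prefix also takes in 3 opposite-strand genes (Slc7a6os, Slc36a1os and Slc6a19os) that encode no transporter, and Slc6a carriers of monoamines, creatine, taurine and GABA.

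Affymetrix mouse arrays measured RNA of cultured mouse cells with or without TGF-b1 (transforming growth factor beta 1), a signalling protein that pushes epithelial cells towards a mesenchymal state. NMuMG is a line from mouse mammary gland epithelium, and its cells in all 4 groups carried 200 µM 4-thiouridine (4sU), a uridine analogue built into RNA as it is made, for 2 h. Newly made RNA is the 4sU-labelled part, enriched by mercury-based chromatography. It was taken from cells with 5 ng/ml TGF-b1 for 2 h and, as a separate group, from control cells without TGF-b1. The other groups were total RNA of cells with 5 ng/ml TGF-b1 for 2 h and total RNA of control cells. NM18 cells had 3 groups, all transfected with 25 nM siRNA 48 h before RNA was taken: FoxQ1 siRNA with 5 ng/ml TGF-b1 for the last 40 h, a scrambled control (ns-siRNA) with the same TGF-b1, and ns-siRNA without TGF-b1. Each group had 3 arrays of replicates described as biological. FoxQ1 is a forkhead transcription factor, and no group had FoxQ1 siRNA without TGF-b1. The note of array 1 of ns-siRNA without TGF-b1 is a general one that names both siRNAs and TGF-b1, but title and treatment field give ns-siRNA only. The title was followed, and results at 40 h are also given without that array.

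Amino acid transporters carry amino acids and related small molecules across the plasma membrane or the lysosomal membrane. Most work as single carriers, but several Slc7a proteins are light chains that reach the cell surface bound to a heavy chain, Slc3a2 (CD98) or Slc3a1. Cells that lack amino acids raise the transcription factor ATF4, which switches on several of these carriers together with enzymes that make amino acids and charge tRNAs, and leucine and glutamine uptake feed the growth kinase complex mTORC1.

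The deposited values are log2 probe-set levels, and a change here is a difference of log2 means, given with its standard error after ±. A gene is called where the adjusted p of limma's test across all genes was under 0.05. Array medians lay between 5.69 and 6.00 (log2) in NMuMG and between 7.36 and 7.42 in NM18 cells. Of 8 epithelial markers, Krt8, Krt18, Krt19, Cdh1, Epcam and Cldn3 stood above the table's median level in NMuMG cells, while Cldn4 and Cldn7 stood below it. In NM18 cells Epcam, Cldn3, Cldn4 and Cldn7 stood below. Foxq1, the siRNA target, ranged from 7.57 to 8.09 (log2) with FoxQ1 siRNA and TGF-b1, against 9.04 to 9.33 with ns-siRNA and TGF-b1, and was lower by a log2 change of -1.27 ± 0.16 (adjusted p = 0.000291).

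Most of these genes gave low signals. The mean level stood above the table's median for 22 of 63 genes in NMuMG and 10 of 43 in NM18 cells. In total RNA of control NMuMG cells the highest probe sets were those of Slc6a6, the taurine transporter, at 12.30 (log2, mean of 3 arrays), Slc3a2 at 11.82, Slc7a1, a carrier of arginine and lysine, at 11.73, and Slc38a2, a sodium-coupled carrier of small neutral amino acids, at 11.28. In NM18 cells with ns-siRNA and no TGF-b1, Slc3a2 stood at 11.73, Slc38a2 at 11.59 and Slc6a6 at 11.09. Probe sets differ in how well they bind, so these figures describe the arrays and do not rank transcripts.

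TGF-b1 changed few of these genes within 2 h. In newly made RNA 6 of 63 were called (9.52%), against 6.13% of all genes. Slc6a8, Slc7a6, Slc7a6os, Slc7a7 and Slc6a7 were higher, and Slc1a5 was lower. Upward calls made up 3.35% and downward calls 2.79% of all genes. The median change was 0.04 (log2) over the 63 genes and -0.01 over all genes. All 6 were among the 22 genes above the median level, where 9.85% of all genes were called.

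Slc6a8, the creatine transporter, moved most. Its levels in newly made RNA were 10.51, 10.93 and 10.61 (log2) with TGF-b1, against 9.02, 9.78 and 9.51 in control cells. Every TGF-b1 array stood above every control array. The change was 1.25 ± 0.19, a 2.37-fold rise (adjusted p = 0.000441), and a dimmer probe set of the gene gave 1.16 ± 0.14. Among the 6 genes it was the one called under all 14 alternative settings.

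The light chains Slc7a6 and Slc7a7, which pair with Slc3a2 and exchange cationic for neutral amino acids, also rose in newly made RNA. Slc7a6 stood at 11.26, 11.31 and 11.09 with TGF-b1, against 10.68, 10.68 and 10.87 in control cells, a change of 0.48 ± 0.11 (adjusted p = 0.0144). Slc7a7 stood at 7.15, 7.09 and 6.86 with TGF-b1, against 6.50, 6.32 and 6.74 in control cells, a change of 0.51 ± 0.13 (adjusted p = 0.0294). In neither gene did the groups overlap. The neighbour gene Slc7a6os stood at 9.14, 9.31 and 9.06 with TGF-b1, against 8.40, 8.57 and 8.77 in control cells, a change of 0.59 ± 0.14 (adjusted p = 0.0164). Its other probe set (mean level 8.10, against 8.44 for the one used) changed by 0.02 ± 0.13, so the probe sets of Slc7a6os disagreed. Slc6a7, a proline transporter known from brain, stood at 7.09, 7.89 and 7.55 with TGF-b1, against 6.48, 7.14 and 6.76 in control cells, a change of 0.72 ± 0.20 (adjusted p = 0.0434). The lowest TGF-b1 array of Slc6a7 lay below the highest control array.

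Slc1a5, the main glutamine carrier of many dividing cells, was the gene that fell. It stood at 6.76, 6.74 and 6.76 in newly made RNA with TGF-b1, against 7.07, 7.26 and 7.52 in control cells, with no overlap and a change of -0.53 ± 0.13 (adjusted p = 0.0171). Its dimmer probe set changed by -0.10 ± 0.16. The heavy chain Slc3a2 stood at 11.21, 11.82 and 11.72 with TGF-b1, against 11.51, 11.80 and 11.73 in control cells (change -0.09 ± 0.15, adjusted p = 0.872). Slc3a1, the heavy chain of kidney and gut, stood at 5.21, 5.57 and 5.08 with TGF-b1, against 5.27, 5.53 and 5.42 in control cells (change -0.12 ± 0.14, adjusted p = 0.795). Both heavy chains overlapped between the groups. The calls other than Slc6a8 rest on few arrays: without array 2 of newly made RNA with TGF-b1 only Slc6a8 was called, without array 1 of newly made control RNA 3 genes were, without array 2 of it 2 were, and 2 were in a fit of these 6 arrays alone.

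**Figure D1:**
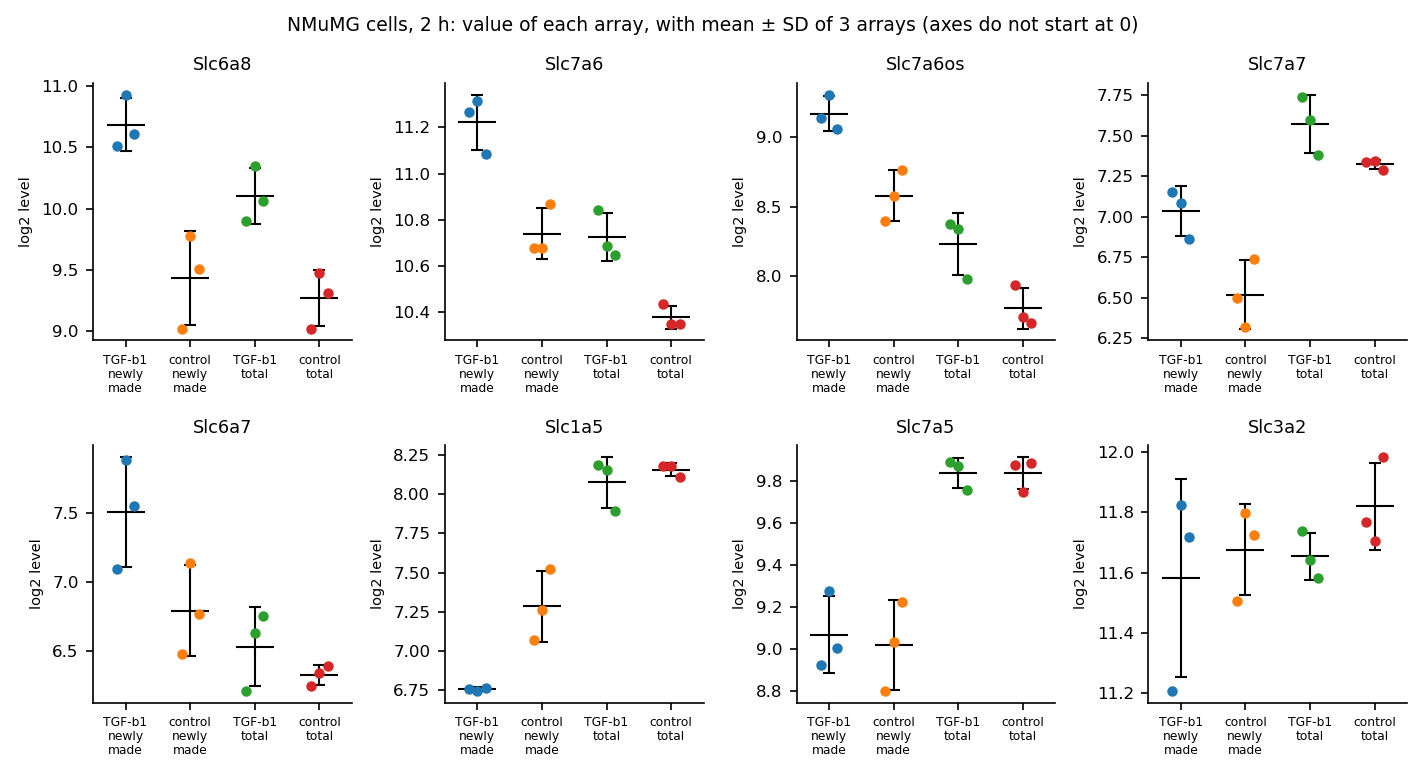
Levels of 8 transporter genes on each NMuMG array (y axis, log2 level, a range of its own for each gene) in newly made RNA with TGF-b1, newly made control RNA, total RNA with TGF-b1 and total control RNA (x axis). Points are arrays, and lines with bars are the mean ± SD of 3 arrays. Slc6a8 is higher with TGF-b1 in both kinds of RNA, and Slc7a5 and Slc1a5 are lower in newly made than in total RNA.

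In total RNA after 2 h, 1 of 63 genes was called, against 2.48% of all genes (1.46% higher and 1.02% lower). The median change was -0.01 over the 63 genes and -0.03 over all genes. The gene was again Slc6a8, at 9.90, 10.35 and 10.07 with TGF-b1, against 9.02, 9.48 and 9.32 in control cells. The groups did not overlap, and the change was 0.83 ± 0.19 (adjusted p = 0.0207), with 0.63 ± 0.14 from the other probe set. This call was lost without array 2 or 3 of total RNA with TGF-b1 and without array 1 or 3 of total control RNA, with adjusted p up to 0.146.

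The other genes of the 2 h set did not pass the test in total RNA. Slc7a6 stood at 10.84, 10.69 and 10.65 with TGF-b1, against 10.43, 10.35 and 10.35 in control cells (change 0.35 ± 0.11, adjusted p = 0.170). Slc7a6os stood at 8.38, 8.34 and 7.98 with TGF-b1, against 7.94, 7.70 and 7.67 in control cells (change 0.46 ± 0.14, adjusted p = 0.128). Neither overlapped between the groups. With the replicate number as a block within each kind of RNA, a setting chosen after seeing the data, Slc7a6os was called (adjusted p = 0.0162), and so was Slc36a4, an Slc36 family carrier, with a change of -0.49 (adjusted p = 0.0277, against 0.187 without the block). Slc7a7 changed by 0.25 ± 0.13, Slc6a7 by 0.21 ± 0.20 and Slc1a5 by -0.08 ± 0.13 in total RNA.

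The effect of TGF-b1 was then compared between newly made and total RNA. By limma 0 of 63 genes were called for this difference, against 0.0660% of all genes (12 genes, with 0.0110% higher and 0.0550% lower), and 1 gene had an unadjusted p under 0.05. That gene was Slc1a5, with a difference of the changes of -0.45 ± 0.18 (adjusted p = 1.00). For Slc6a8 the difference was 0.41 ± 0.26, with a 95% interval from -0.15 to 0.97. No 2 h effect of these genes is shown to differ between the kinds of RNA.

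After 40 h of TGF-b1 in NM18 cells under ns-siRNA, calls of carriers went in both directions. Creatine carrier Slc6a8, taurine carrier Slc6a6, light chain Slc7a6 and the Slc38 family members Slc38a10 and Slc38a2 rose, while Slc7a5, Slc1a5 and Slc7a11, carriers of leucine, glutamine and cystine, fell. These were 8 of 43 genes (18.6%), against 30.7% of all genes. Upward calls made up 13.2% and downward calls 17.5% of all genes. The median change was 0.04 over the 43 genes and 0.00 over all genes. Among the 10 genes above the median level 5 rose and 1 fell, where 47.8% of all genes were called.

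Slc6a8 had levels of 10.06, 10.32 and 10.02 with TGF-b1, against 8.75, 8.84 and 8.72 without it. The change was 1.37 ± 0.08, a 2.58-fold rise (adjusted p = 1.8e-06), and the other probe set gave 0.95 ± 0.07. Slc6a6 stood at 11.71, 11.40 and 11.83 with TGF-b1, against 11.09, 11.22 and 10.97 without it (change 0.55 ± 0.11, adjusted p = 0.00213). Its TGF-b1 arrays all lay above the others, but the dimmer probe sets of Slc6a6 gave smaller changes of 0.07 ± 0.06 and 0.27 ± 0.09, and the mean of its probe sets gave 0.30. At 2 h in NMuMG cells Slc6a6, read by another probe set, had changed by -0.25 ± 0.15 in newly made RNA (adjusted p = 0.493).

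Among heavy and light chains, Slc7a5 (LAT1), which brings in leucine and other large neutral amino acids, fell most. It stood at 9.07, 9.35 and 9.35 with TGF-b1, against 10.39, 10.31 and 10.71 without it, with no overlap. The change was -1.21 ± 0.12, a 2.32-fold drop (adjusted p = 2.2e-05). Slc7a11 (xCT), which imports cystine in exchange for glutamate and so feeds glutathione synthesis, stood at 6.35, 6.43 and 6.35 with TGF-b1, against 7.18, 6.83 and 7.53 without it (change -0.80 ± 0.13, adjusted p = 0.00085). Its mean level lay below the table's median. Its 3 TGF-b1 arrays lay within a narrow range below all arrays without TGF-b1. Slc7a6 went the other way, at 10.92, 10.81 and 11.02 with TGF-b1, against 10.26, 10.32 and 10.08 without it (change 0.69 ± 0.09, adjusted p = 0.000174), and its second probe set gave 0.58 ± 0.11. Slc7a7 was at 7.64, 8.37 and 7.80 with TGF-b1, against 7.62, 8.23 and 8.09 without it, with overlapping groups (change -0.04 ± 0.22).

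The heavy chains gave no change past the threshold. Slc3a2, the partner of Slc7a5, stood at 11.97, 12.11 and 11.81 with TGF-b1, against 11.62, 11.71 and 11.85 without it, with overlap of 1 array on each side. Its change of 0.24 ± 0.09 missed the threshold (adjusted p = 0.0647) and passed it after quantile normalization (adjusted p = 0.0353) or centring on array medians (adjusted p = 0.0411). Slc3a1 stood at 6.05, 6.00 and 6.03 with TGF-b1, against 6.08, 6.15 and 5.84 without it (change 0.00 ± 0.09).

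The glutamine carrier Slc1a5 stood at 6.86, 6.90 and 6.89 with TGF-b1, against 7.96, 7.84 and 8.49 without it, a gap wider than the spread of either group. It fell by 1.21 on the log2 scale (SE 0.13, adjusted p = 5.05e-05), a 2.31-fold drop, and its mean level lay below the table's median. Its relative Slc1a4, a carrier of alanine, serine and cysteine, stood at 8.25, 8.21 and 8.56 with TGF-b1, against 8.21, 8.25 and 8.94 without it, and the groups overlapped (change -0.13 ± 0.17, adjusted p = 0.659). Slc38a10 rose, from 7 probe sets of which 5 passed the test on their own. It stood at 10.87, 10.93 and 10.95 with TGF-b1, against 10.32, 10.62 and 10.48 without it (change 0.45 ± 0.09, adjusted p = 0.00207). The rise of Slc38a2 was the smallest of the 8, at 11.90, 11.77 and 11.96 with TGF-b1, against 11.43, 11.65 and 11.69 without it (change 0.28 ± 0.08, adjusted p = 0.0231). That call was lost without array 1 or 3 of ns-siRNA with TGF-b1, or without array 1 of ns-siRNA alone (adjusted p up to 0.0921). Without the last of these, the array with the general note, 7 genes were called, 4 higher and 3 lower. With the replicate number as a block, Slc38a1, a carrier of glutamine and related amino acids, was also called, with a change of -0.21 (adjusted p = 0.0373, against 0.169 without the block).

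**Figure D2:**
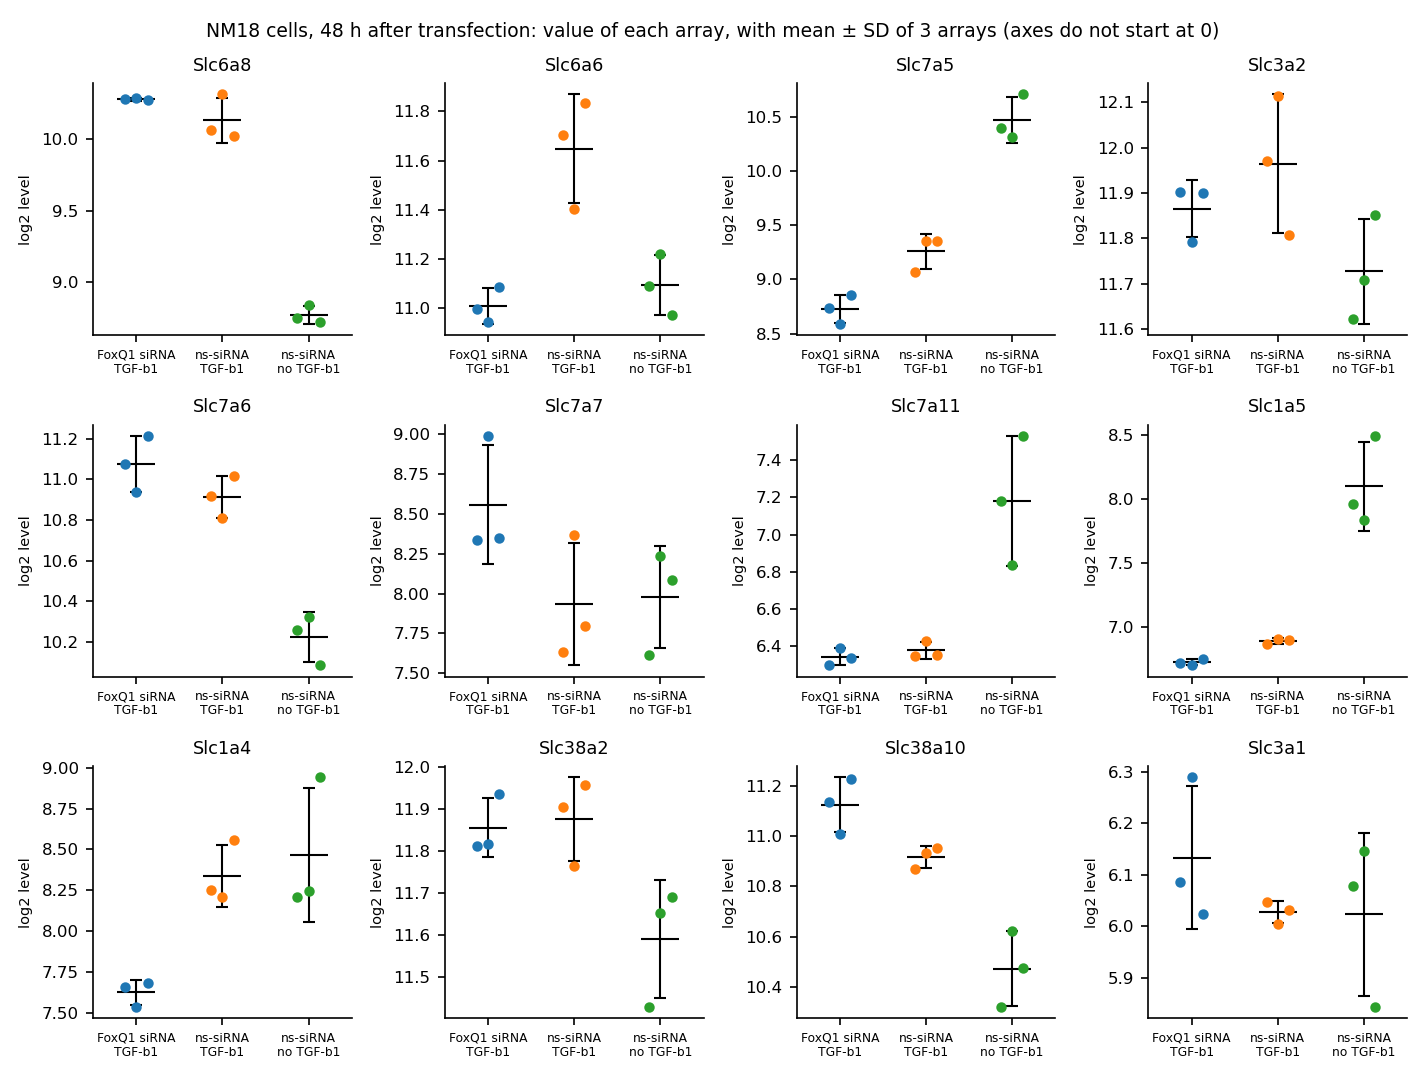
Levels of 12 transporter genes on each NM18 array (y axis, log2 level, a range of its own for each gene) with FoxQ1 siRNA and TGF-b1, ns-siRNA and TGF-b1, and ns-siRNA alone (x axis). Points are arrays, and lines with bars are the mean ± SD of 3 arrays. Slc7a5 is lower in each group further left, while Slc6a6 is high only with ns-siRNA and TGF-b1.

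RefSeq promoter windows (GRCm38.p6, from 250 bases before to 50 bases after the annotated start) were present for 46 of the 63 genes and for 7 of the 12 genes called in a treatment comparison. Where a gene had several windows, the first listed was used. The called genes without a window were Slc6a8, Slc6a6, Slc6a7, Slc7a5 and Slc1a5, so their starts were not read. These 7 windows are printed on the gene's own strand to show which stress and forkhead motifs they hold. Capitals mark 3 motifs searched on both strands: TGATGNAA, the C/EBP-ATF composite element bound by ATF4, TGACNNNGC, the antioxidant response element, and TGTTTA, a core bound by forkhead proteins.
Slc7a11, chr3:50443564-50443863, minus strand: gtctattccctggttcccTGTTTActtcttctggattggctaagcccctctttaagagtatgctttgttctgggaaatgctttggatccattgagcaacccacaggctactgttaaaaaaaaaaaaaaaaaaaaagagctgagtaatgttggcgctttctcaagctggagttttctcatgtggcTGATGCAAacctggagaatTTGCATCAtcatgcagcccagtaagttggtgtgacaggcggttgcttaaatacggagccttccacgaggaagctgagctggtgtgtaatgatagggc
Slc1a4, chr11:20332664-20332963, minus strand: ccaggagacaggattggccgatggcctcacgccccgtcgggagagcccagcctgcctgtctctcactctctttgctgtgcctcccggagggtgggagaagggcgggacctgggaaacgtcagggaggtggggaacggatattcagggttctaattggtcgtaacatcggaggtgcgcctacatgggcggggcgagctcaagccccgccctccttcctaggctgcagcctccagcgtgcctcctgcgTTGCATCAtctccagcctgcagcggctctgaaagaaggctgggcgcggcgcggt
Slc7a6, chr8:106168604-106168903, plus strand: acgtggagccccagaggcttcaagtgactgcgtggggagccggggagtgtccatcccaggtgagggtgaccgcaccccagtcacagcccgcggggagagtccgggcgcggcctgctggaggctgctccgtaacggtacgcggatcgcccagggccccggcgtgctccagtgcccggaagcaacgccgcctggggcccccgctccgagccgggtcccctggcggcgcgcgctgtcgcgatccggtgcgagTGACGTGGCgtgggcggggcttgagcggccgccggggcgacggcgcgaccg
Slc7a7, chr14:54417895-54418194, minus strand: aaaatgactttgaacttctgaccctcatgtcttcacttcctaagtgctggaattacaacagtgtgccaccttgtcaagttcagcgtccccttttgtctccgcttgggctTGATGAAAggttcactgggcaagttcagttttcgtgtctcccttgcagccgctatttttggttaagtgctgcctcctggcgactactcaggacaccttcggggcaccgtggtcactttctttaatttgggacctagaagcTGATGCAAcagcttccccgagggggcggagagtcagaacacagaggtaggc
Slc7a6os, chr8:106210884-106211183, minus strand: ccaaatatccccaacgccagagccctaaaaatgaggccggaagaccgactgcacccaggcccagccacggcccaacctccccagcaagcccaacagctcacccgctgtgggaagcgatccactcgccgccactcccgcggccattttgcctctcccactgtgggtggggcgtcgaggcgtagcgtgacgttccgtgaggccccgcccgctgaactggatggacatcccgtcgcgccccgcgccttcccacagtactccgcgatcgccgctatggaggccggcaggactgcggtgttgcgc
Slc38a2, chr15:96699679-96699978, minus strand: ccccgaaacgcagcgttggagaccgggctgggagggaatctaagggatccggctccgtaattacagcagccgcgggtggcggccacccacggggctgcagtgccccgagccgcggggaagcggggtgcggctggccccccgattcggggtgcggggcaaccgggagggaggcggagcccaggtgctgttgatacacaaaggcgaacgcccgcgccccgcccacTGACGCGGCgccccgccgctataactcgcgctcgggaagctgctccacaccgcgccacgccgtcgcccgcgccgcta
Slc38a10, chr11:120151302-120151601, minus strand: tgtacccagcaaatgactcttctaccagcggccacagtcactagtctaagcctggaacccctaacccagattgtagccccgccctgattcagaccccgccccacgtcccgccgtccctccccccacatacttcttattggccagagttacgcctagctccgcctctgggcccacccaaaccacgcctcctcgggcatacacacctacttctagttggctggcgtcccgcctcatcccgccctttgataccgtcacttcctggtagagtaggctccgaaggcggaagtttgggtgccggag

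Slc7a11, lower after 40 h of TGF-b1, held the composite element at bases -66 to -59 and, in the opposite orientation, at -47 to -40, counted with the annotated start as base 0, and a forkhead core at -232 to -227. Slc1a4, lower with FoxQ1 siRNA, held the composite element across its start, at -4 to 3. Slc7a7, higher at 2 h in newly made RNA, held it at -141 to -134 and at -1 to 6. The calls of Slc7a11, Slc1a4 and Slc7a7 come from different comparisons. A link of the element with the direction of change was not tested. The Slc7a6 and Slc38a2 windows held only the antioxidant motif, and Slc38a10 and Slc7a6os held none of the 3. No motifs overlapped each other in these windows. The composite element was found in 4.06% of all 27025 windows and in 4 of 46 transporter windows, the antioxidant motif in 12.5% of all and 9 of 46, and the forkhead core in 13.4% of all and 7 of 46. A match describes the letters in a window only.

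With FoxQ1 siRNA 3 of these genes fell in cells with TGF-b1, and 0 rose past the threshold in the fit without a replicate block. The genes that fell were the taurine carrier Slc6a6, the leucine carrier Slc7a5 and the alanine and serine carrier Slc1a4. With the replicate number as a block they stayed called, and Slc7a7 was called as higher (adjusted p = 0.000884). Without the block the 3 of 43 genes (6.98%) compare with 19.6% of all genes called, 11.3% higher and 8.28% lower. The median change was -0.03 over the 43 genes and -0.00 over all genes. All 3 were among the 10 genes above the median level, where 31.4% of all genes were called.

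Slc6a6 stood at 11.00, 10.94 and 11.09 with FoxQ1 siRNA, against 11.71, 11.40 and 11.83 with ns-siRNA, both with TGF-b1. The groups did not overlap, and the change was -0.64 ± 0.11, a 1.56-fold drop (adjusted p = 0.00157). Its dimmer probe sets gave -0.10 ± 0.06 and -0.22 ± 0.09, and the mean of its probe sets gave -0.32 (adjusted p = 0.00745). The FoxQ1 siRNA arrays lay within the range of ns-siRNA cells without TGF-b1 or just below it. Slc7a5 stood at 8.74, 8.59 and 8.85 with FoxQ1 siRNA, against 9.07, 9.35 and 9.35 with ns-siRNA (change -0.53 ± 0.12, adjusted p = 0.00787). Slc1a4 stood at 7.66, 7.54 and 7.68 with FoxQ1 siRNA, against 8.25, 8.21 and 8.56 with ns-siRNA (change -0.71 ± 0.17, adjusted p = 0.0117). Neither gene's groups overlapped. The Slc1a4 call was lost without array 3 of ns-siRNA with TGF-b1 (adjusted p = 0.0513), and its dimmer probe sets gave -0.48 ± 0.17 and -0.33 ± 0.11.

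The other carriers that TGF-b1 had changed at 40 h did not pass the test with FoxQ1 siRNA. Slc6a8 stood at 10.28, 10.29 and 10.27 with FoxQ1 siRNA, against 10.06, 10.32 and 10.02 with ns-siRNA (change 0.15 ± 0.08, adjusted p = 0.254). Its dimmer probe set changed by 0.28 ± 0.07 and passed in a fit of all probe sets (adjusted p = 0.0143). Slc1a5 stood at 6.71, 6.70 and 6.75 with FoxQ1 siRNA, against 6.86, 6.90 and 6.89 with ns-siRNA, without overlap but with a change of only -0.16 ± 0.13 (adjusted p = 0.477). Slc7a11 stood at 6.30, 6.39 and 6.33 with FoxQ1 siRNA, against 6.35, 6.43 and 6.35 with ns-siRNA (95% interval of the change from -0.33 to 0.26). Slc1a5 and Slc7a11 both lay below the table's median level, and how near background they are was not analysed. The heavy chain Slc3a2 stood at 11.90, 11.79 and 11.90 with FoxQ1 siRNA, against 11.97, 12.11 and 11.81 with ns-siRNA (change -0.10 ± 0.09). Slc3a1 stood at 6.09, 6.29 and 6.02 with FoxQ1 siRNA, against 6.05, 6.00 and 6.03 with ns-siRNA (change 0.10 ± 0.09). Slc7a6 changed by 0.16 ± 0.09, Slc38a10 by 0.21 ± 0.09 and Slc38a2 by -0.02 ± 0.08.

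Slc7a7 depended on how replicates were treated. It stood at 8.34, 8.99 and 8.35 with FoxQ1 siRNA, against 7.64, 8.37 and 7.80 with ns-siRNA, so the groups overlapped while the array numbered 2 was high in each. The change of 0.62 ± 0.22 had an adjusted p of 0.0786, and with the replicate number as a block an adjusted p of 0.000884. Without array 2 of ns-siRNA with TGF-b1, Slc7a7 (adjusted p = 0.0224) and Slc6a8 (adjusted p = 0.0421) were called as higher, which gave 5 genes in place of 3.

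Set against ns-siRNA cells without TGF-b1, cells with FoxQ1 siRNA and TGF-b1 had 8 of 43 genes called, 4 higher and 4 lower, against 37.9% of all genes. This comparison shares its arrays with both earlier NM18 comparisons, so its values are given only side by side. Slc7a5 was lower by -1.74 ± 0.12 here (8.73 against 10.47, means of 3 arrays), where TGF-b1 alone had given -1.21 and FoxQ1 siRNA -0.53. Slc1a4 changed by -0.84 ± 0.17 (7.62 against 8.47). Slc6a6, higher with TGF-b1 and lower with FoxQ1 siRNA, had 11.01 against 11.09 and was not called. The remaining called genes were Slc1a5 at -1.38, Slc7a11 at -0.84, Slc6a8 at 1.51, Slc7a6 at 0.85, Slc38a10 at 0.65 and Slc38a2 at 0.26. With the replicate block Slc7a7 (0.58, adjusted p = 0.000574) and Slc7a8 (-0.18, adjusted p = 0.0345), another light chain of Slc3a2, were called too. Without array 1 of ns-siRNA alone Slc38a2 was not called (adjusted p = 0.112).

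**Figure D3:**
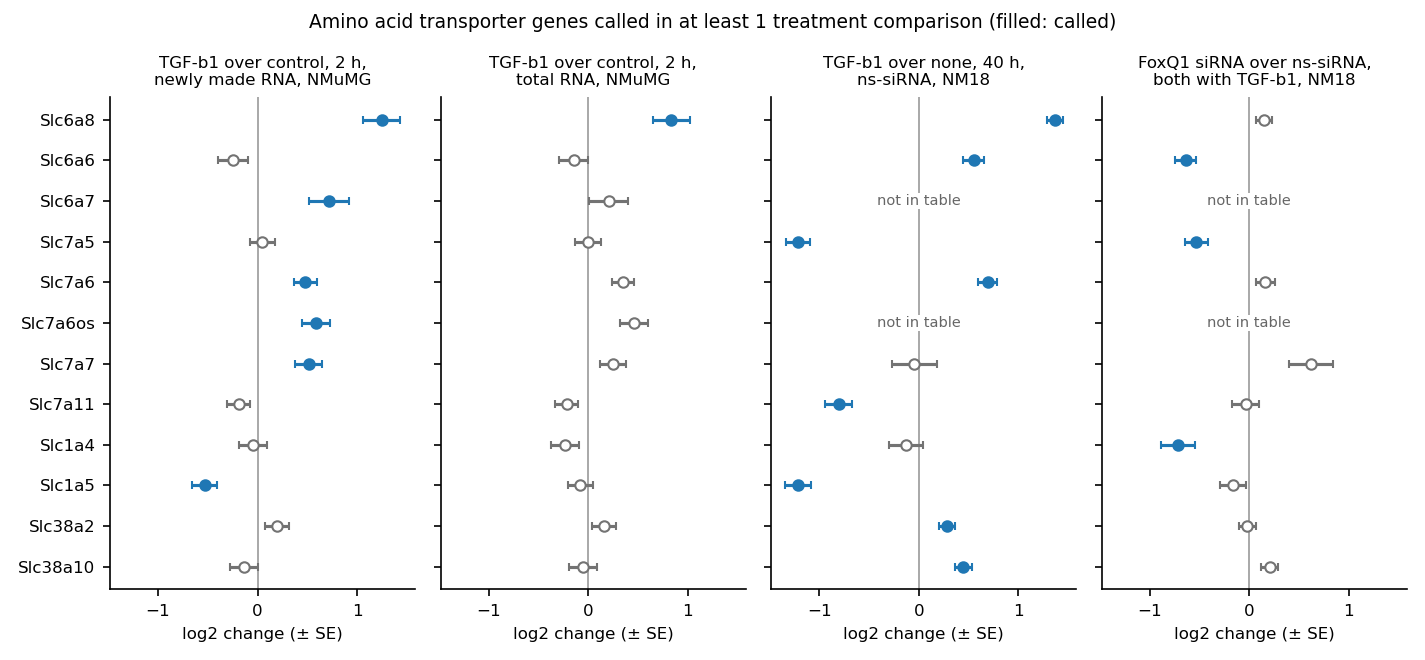
Log2 change ± SE (x axis) of the 12 transporter genes called in at least 1 treatment comparison (y axis) for TGF-b1 over control at 2 h in newly made and in total RNA, TGF-b1 over none at 40 h, and FoxQ1 siRNA over ns-siRNA. Filled points were called. The 2 h panels are of NMuMG cells, and the 40 h and FoxQ1 siRNA panels are of NM18 cells on another array type. Slc6a8 lies right of 0 by 1.25, 0.83 and 1.37 in the first 3 panels, and Slc7a5 lies left of 0 by 1.21 and 0.53 in the NM18 panels.

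Newly made and total RNA of control NMuMG cells were compared to show which carriers differ between fresh transcripts and the whole pool. The sodium-coupled carriers Slc38a2 and Slc38a1 and the arginine carrier Slc7a1 were higher in newly made RNA, and Slc38a10, Slc7a4, Slc1a5, Slc7a5 and Slc7a7 were lower. The calls were 22 of 63 genes (34.9%), 11 higher and 11 lower, against 44.0% of all genes, 17.2% higher and 26.8% lower. The split depends on scaling: it was 12 higher and 7 lower after quantile normalization, and 12 and 6 after centring on array medians. All genes split 3131 higher and 4877 lower as deposited, 3893 and 4256 after quantile normalization, and 3828 and 4035 after centring. The median difference was -0.03 over the 63 genes and -0.08 over all genes.

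Slc38a2 stood at 12.48, 12.66 and 12.85 in newly made RNA, against 11.22, 11.28 and 11.34 in total RNA, a difference of 1.39 ± 0.12 (adjusted p = 1.22e-07). Its other probe sets gave 2.15 ± 0.12 and 0.83 ± 0.19. Slc38a1 followed with 1.20 ± 0.15 (10.36 in newly made and 9.16 in total RNA), Slc7a1 with 1.12 ± 0.11 (12.86 and 11.73), Slc7a6os with 0.81 ± 0.14 (8.58 and 7.77) and Slc43a2, a carrier of large neutral amino acids, with 0.79 ± 0.13 (9.32 and 8.53). The second probe set of Slc7a6os gave -0.74 ± 0.13, and a dimmer one of Slc43a2 gave 0.04 ± 0.13, so the probe sets of Slc7a6os point in opposite directions and those of Slc43a2 differ in size.

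At the other end Slc38a10 stood at 9.69, 9.95 and 9.43 in newly made RNA, against 10.72, 10.74 and 10.97 in total RNA, a difference of -1.12 ± 0.14 (adjusted p = 5.75e-06). Slc7a4 differed by -0.93 ± 0.13 (6.37 in newly made and 7.30 in total RNA), Slc1a5 by -0.87 ± 0.13 (7.28 and 8.16), Slc7a5 by -0.82 ± 0.13 (9.02 and 9.84) and Slc7a7 by -0.80 ± 0.13 (6.52 and 7.32). A dimmer Slc1a5 probe set went the other way, by 0.44 ± 0.16. Slc3a2, at 11.51, 11.80 and 11.73 in newly made RNA, against 11.77, 11.71 and 11.98 in total RNA, was not called (-0.14). Slc3a1, at 5.27, 5.53 and 5.42 in newly made RNA, against 5.76, 5.94 and 5.59 in total RNA, was lower (-0.35 ± 0.14, adjusted p = 0.0489), a call lost after quantile normalization (adjusted p = 0.110) or centring (adjusted p = 0.177).

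In cells with TGF-b1 the same contrast called 22 of 63 genes, 12 higher and 10 lower, against 45.0% of all genes. The split was 14 and 7 after quantile normalization and 15 and 7 after centring. The split of all genes moved too, from 3321 higher and 4872 lower to 3961 and 4296 after quantile normalization and 4019 and 3978 after centring. Slc38a2 was at the top with 1.42 ± 0.12 (12.86 in newly made and 11.44 in total RNA). Slc1a5 was at the bottom with -1.32 ± 0.13 (6.75 and 8.08).

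**Figure D4:**
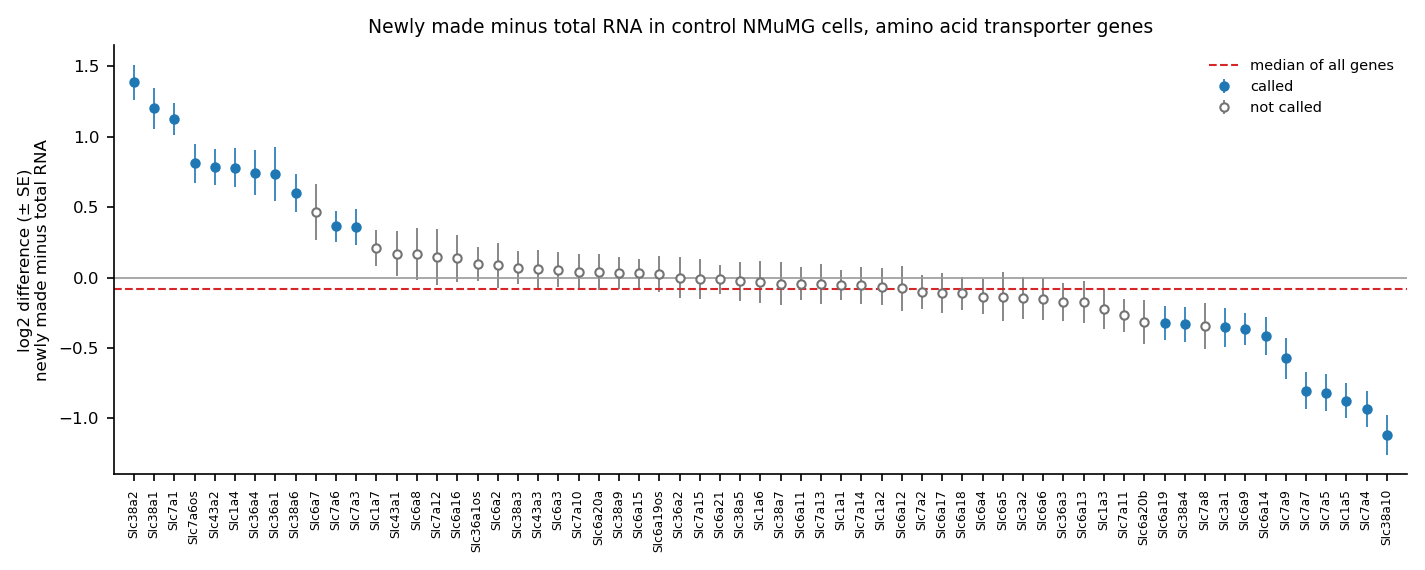
Log2 difference ± SE (y axis) between newly made and total RNA in control NMuMG cells for the 63 transporter genes (x axis, ordered by the difference). Filled points were called, and the dashed line is the median of all genes, -0.08. Slc38a2 lies at 1.39 and Slc38a10 at -1.12.

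Probe sets limit what the NM18 arrays say of Slc7a1. Its NM18 probe set averaged 5.96, and the same probe set averaged 4.39 in NMuMG cells. The Slc7a1 probe set used for NMuMG cells averaged 12.28, and another one there averaged 10.43. In NM18 cells Slc7a1 changed by 0.04 ± 0.09 with TGF-b1 and by -0.03 ± 0.09 with FoxQ1 siRNA on that dim probe set.

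Genes that work beside the carriers were read from 4 lists. In the list of ATF4 and amino acid response genes, TGF-b1 at 2 h raised 2 and lowered 4 of 29 measured genes in newly made RNA, where 3.35% of all genes were higher and 2.79% lower. Trib3 (1.00 ± 0.13), a brake on ATF4 signalling, and Eif2ak3 (0.89 ± 0.15), the PERK kinase, were higher. Cth (-1.23 ± 0.14), which makes cysteine, and the serine enzymes Psat1 (-0.70 ± 0.12) and Phgdh (-0.55 ± 0.15) were lower, as was Gpt2 (-0.76 ± 0.16), an alanine transaminase. In total RNA 2 were higher, Trib3 (1.23 ± 0.13) and Eif2ak3 (0.87 ± 0.15), and 2 lower, Ddit3 (-0.61 ± 0.12) and Sesn2 (-0.63 ± 0.15), against 1.46% higher and 1.02% lower of all genes. Without array 2 of total RNA with TGF-b1 the count there was 2 higher and 0 lower. The median change of the list was -0.07 in newly made and -0.06 in total RNA. Under the replicate block Ddit4, a brake on mTORC1, was called as higher in newly made (adjusted p = 0.0165) and in total RNA (adjusted p = 0.0253), Cebpb as higher in total RNA (0.53) and Sesn2 as lower in newly made RNA (-0.46). With the block kept within each kind of RNA, Cth was called for the difference of the changes (-0.93, adjusted p = 0.00897, against 0.189 without it).

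At 40 h the same list had 6 higher and 11 lower of 28 measured genes, with a median change of -0.14, where 13.2% of all genes were higher and 17.5% lower. Psat1 (-1.46 ± 0.14), Phgdh (-0.72 ± 0.07) and Cth (-1.57 ± 0.28) were lower, and Eif2ak3 (0.96 ± 0.08) was higher. With FoxQ1 siRNA 1 was higher, Cbs (1.71 ± 0.09), which joins homocysteine and serine, and 4 were lower, Cebpg (-0.65 ± 0.10), Atf3 (-0.78 ± 0.12), Shmt2 (-0.61 ± 0.11) and Psat1 (-0.56 ± 0.14), against 11.3% higher and 8.28% lower of all genes. With the replicate block these became 2 higher and 8 lower, where 3520 of all 12393 genes were called in place of 2425. The mean levels of Cth and Cbs lay below the table's median in NM18 cells.

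Of the aminoacyl-tRNA synthetases, which load amino acids onto tRNAs, 0 of 19 were called by limma at 2 h in newly made or in total RNA, and 0 had an unadjusted p under 0.05. Kars was called as lower in newly made RNA under the block within each kind of RNA (-0.41, adjusted p = 0.0339, against 0.385 without it). At 40 h 1 of 18 was higher, Rars (0.25 ± 0.06), and 5 were lower, among them Vars (-0.86 ± 0.09), Farsb (-0.28 ± 0.08) and Cars (-0.31 ± 0.09), against 13.2% higher and 17.5% lower of all genes. Without array 1 or 2 of ns-siRNA with TGF-b1, or array 3 of ns-siRNA alone, 2 or 3 synthetases were called in place of 6. With FoxQ1 siRNA 5 of 18 were lower, Iars (-0.57 ± 0.09), Farsb (-0.45 ± 0.08), Vars (-0.49 ± 0.09), Hars (-0.38 ± 0.08) and Eprs (-0.32 ± 0.07), where 8.28% of all genes were lower and 11.3% higher. Under the block 9 were lower and 1 higher, where 1497 of all 12393 genes were lower and 2023 higher. The median change of the list was -0.10 at 40 h and -0.20 with FoxQ1 siRNA. All 19 were lower in newly made than in total RNA of control cells, with a median difference of -1.13. Of all genes 26.8% were lower and 17.2% higher there, with a median difference of -0.08.

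Among enzymes of glutamine, glutamate and glutathione, 1 of 17 was higher and 5 lower at 2 h in newly made RNA, where 3.35% of all genes were higher and 2.79% lower. These included Gclc (-0.89 ± 0.11), which starts glutathione synthesis, Gss (-0.74 ± 0.13), which completes it, and Glul (-0.71 ± 0.14), which makes glutamine, all lower, and Gclm (0.65 ± 0.14), the partner of Gclc, which was higher. In total RNA Gclc alone was called (-0.73 ± 0.11). Under the block within each kind of RNA, Ppat was also called as lower in newly made RNA (-0.32), and Gfpt1 for the difference of the changes (-0.68). At 40 h 0 were higher and 9 lower, against 13.2% and 17.5% of all genes, Gclc by -1.84 ± 0.22, Glul by -1.44 ± 0.15, Gsr, which recycles glutathione, by -1.23 ± 0.08, and Gpt by -0.82 ± 0.09. With FoxQ1 siRNA Gclc (0.81 ± 0.22), Glul (0.55 ± 0.15) and Gss (0.46 ± 0.12) were higher, and 1 was lower, Cad (-0.77 ± 0.08), which starts pyrimidine synthesis, against 11.3% higher and 8.28% lower of all genes. Without array 1 or 3 of ns-siRNA with TGF-b1 only 1 gene of the list was called there. With the replicate block 5 were higher and 4 lower, where 2023 of all 12393 genes were higher and 1497 lower. These NM18 comparisons share the ns-siRNA arrays with TGF-b1.

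Of the amino acid sensing and mTORC1 genes, 0 of 23 were called at 2 h in newly made RNA by limma (1 with an unadjusted p under 0.05), and 1 in total RNA, the leucine sensor Sesn2 (-0.63 ± 0.15), a call lost without any array of total RNA with TGF-b1 or without array 1 or 3 of total control RNA. Under the replicate block 1 was called in newly made RNA, Sesn2 (-0.46, adjusted p = 0.0490), and Sesn1 joined it in total RNA (-0.48, adjusted p = 0.0400). At 40 h 4 of 20 were higher, among them the Rag GTPases Rraga (0.48 ± 0.09) and Rragc (0.39 ± 0.08) and the inhibitor Tsc1 (0.32 ± 0.08), and 2 lower, among them Sesn1 (-0.26 ± 0.07), against 13.2% higher and 17.5% lower of all genes. Without array 2 of ns-siRNA with TGF-b1 the count was 3 higher and 0 lower. With FoxQ1 siRNA 4 of 20 were higher, among them the Ragulator subunits Lamtor4 (0.38 ± 0.06) and Lamtor1 (0.43 ± 0.07), Sesn3 (0.60 ± 0.13) and Nprl3 (0.29 ± 0.06), and 1 lower, Rheb (-0.27 ± 0.07), against 11.3% and 8.28% of all genes. Under the block 4 were higher and 4 lower, where 2023 of all 12393 genes were higher and 1497 lower. For comparison, a list of 11 symbols of early TGF-b targets had 9 measured in NMuMG and 8 in NM18 cells. At 2 h 7 of 9 rose in newly made and in total RNA, where 3.35% and 1.46% of all genes were higher. At 40 h 8 of 8 rose, where 13.2% of all genes were higher.

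**Figure D5:**
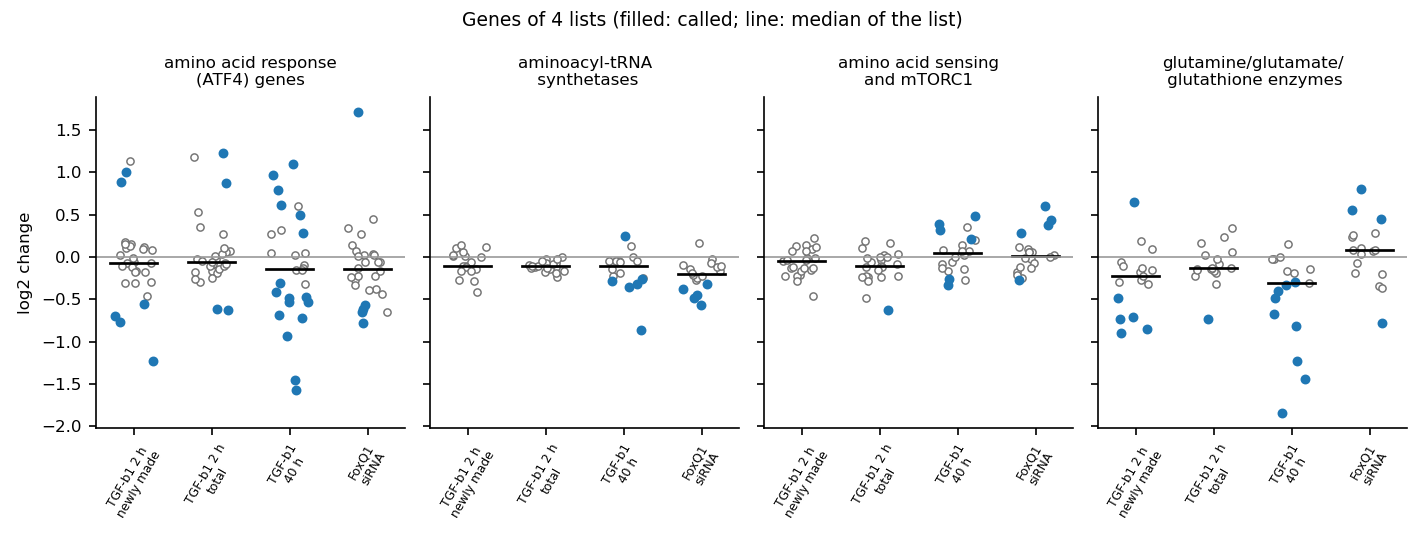
Log2 change (y axis) of each gene of the 4 lists in TGF-b1 over control at 2 h in newly made and in total RNA, TGF-b1 over none at 40 h, and FoxQ1 siRNA over ns-siRNA (x axis). Filled points were called, and the line is the list's median. The glutamine, glutamate and glutathione enzymes have their lowest value at 40 h, Gclc at -1.84.

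Markers of other cell types were read beside these results. In NM18 cells the summed level of 8 macrophage markers, of which 7 (all but Cd14) stood below the table's median, was 10.32 to 10.39 (log2) with ns-siRNA and TGF-b1, against 10.93 to 11.12 without TGF-b1, and 10.67 to 10.80 with FoxQ1 siRNA and TGF-b1. In NMuMG cells it was 10.36 to 10.58 in newly made RNA with TGF-b1, against 10.78 to 11.15 in control cells, and 11.29 to 11.37 in total RNA with TGF-b1, against 11.57 to 12.01 in control cells. Such a sum is weighted towards its brightest genes. Gene by gene, 1 of 8 was called higher and 1 lower at 40 h (13.2% and 17.5% of all genes), with a median change of 0.01. With FoxQ1 siRNA 3 were higher and 0 lower (11.3% and 8.28% of all genes), with a median of -0.00. At 2 h 1 was lower in newly made RNA (2.79% of all genes, list median 0.03). In total RNA 0 were called (2.48% of all genes, list median -0.12). The summed level of 6 basal markers, all below the median in NM18 cells, was 9.44 to 9.61 with FoxQ1 siRNA and TGF-b1, 9.02 to 9.31 with ns-siRNA and TGF-b1, and 8.90 to 9.03 without TGF-b1. Fibroblast markers, 8 of 8 below the median in NM18 cells, summed to 9.07 to 9.15 with ns-siRNA and TGF-b1, against 8.86 to 8.96 without it. Epithelial markers summed to 15.65 to 15.71 with FoxQ1 siRNA and TGF-b1, 15.40 to 15.61 with ns-siRNA and TGF-b1, and 15.78 to 15.90 without TGF-b1. The 4 adipocyte and 4 endothelial markers all stood below the median in both tables. All samples are cultured NMuMG or NM18 cells, and no other cell type is named for them. The part of these markers in the results was not tested, and bulk RNA does not show which cells a marker's RNA came from.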

How the data were processed

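Levels were measured on Affymetrix mouse arrays, 12 of NMuMG and 9 of NM18 cells. The authors deposited log2 values per probe set. The log2 scale is inferred from their range, 2.34 to 14.8 and 4.57 to 14.6. The submitters' processing notes name affy 1.18.2 without a role, and the sources used here do not give the normalization. Per the labels' protocols, NMuMG RNA was amplified over 2 cycles and NM18 RNA was labelled from the 3' end. The tables were treated separately.

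Probe sets were named from the platform annotation (34945 of 45101 and 20380 of 22690 had 1 symbol). Groups were compared with limma 3.58.1 in R 4.3.3 (lmFit, eBayes), 1 fit per table over all groups, two-sided, with p-values adjusted by Benjamini and Hochberg over every gene tested. The scripts were tested on simulated data. Replicates are described as biological, and the number of arrays limits the precision. A gene called for TGF-b1 at 2 h or 40 h or for FoxQ1 siRNA is given per array in the comparison that called it. In other comparisons it is given per array, as a change or not at all. Slc3a1 and Slc3a2 are given per array except for TGF-b1 in total RNA and where groups are only set side by side. For newly made against total RNA the 5 largest differences each way are named. Per list up to 4 called genes with the smallest p are named. Other genes named complete a count of 5 or fewer or changed call under an alternative, and were chosen after their values were seen. Members and lists were chosen with earlier results of these data known.

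Same-numbered arrays deviated together in all 9 NM18 pairs (r 0.16 to 0.61), within newly made RNA (r 0.34 to 0.73) and within total RNA (r 0.12 to 0.41). Pairs of newly made with total RNA had r of 0.01 to 0.31 within a treatment. Across treatments they had r of -0.18 to 0.32. Blocked values are given where they change a transporter's call or move a list's count by over 1.5 times.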

Additional observations from a re-analysis of the deposited data

How the results depend on the processing

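Alternatives were quantile normalization, centring on array medians, genes above the median level only, the mean of all probe sets, an intensity trend, a replicate block, only the arrays compared, and leaving out each array. None turned the direction of a called gene. For TGF-b1 at 2 h in newly made RNA the 6 calls became 2 with only the 6 arrays compared and 1 to 4 when 1 array was left out. In total RNA the single call became 2 after quantile normalization, 3 with a replicate block kept apart for newly made and total RNA (added after seeing the data), and 0 to 1 when 1 array was left out. The 3 calls with FoxQ1 siRNA became 2 to 5 when 1 array was left out. For the other comparisons the ranges without 1 array were 0 to 0 for the difference of the 2 h effects, 7 to 9 for TGF-b1 at 40 h, 7 to 10 for FoxQ1 siRNA with TGF-b1 against untreated cells, and, for newly made against total RNA, 19 to 22 in TGF-b1 cells and 17 to 21 in control cells. The cause of these shifts was not tested, except that fits of fewer arrays hold fewer samples. For newly made against total RNA the replicate block across both kinds of RNA gave 24 calls in control cells and 22 in TGF-b1 cells. The 24 were 12 higher and 12 lower, adding Slc6a7 and Slc7a8. There same-numbered arrays of the same treatment deviated together weakly or hardly at all (r 0.01 to 0.31). Apart from the calls named in the report, the block changed no other transporter call. All genes split 3131 higher and 4877 lower in control cells, and 3893 and 4256 after quantile normalization. Most transporter probe sets lie below the table's median level, and how far above background each one is was not analysed here.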
